A study of Mus musculus with 41 samples.

Results

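Fatty acid oxidation was followed through 10 genes, Cpt1a, Cpt1b, Cpt2, Acadm, Acadl, Acadvl, Hadha, Hadhb, Pdk4 and Ucp3, out of 21755 protein-coding genes on chromosomes 1 to 19 and X. They were chosen by name, with earlier results of these data known, and all 10 were found in the mm10 annotation. Each was examined in CUT&Tag peak lists of H3K18la (lactylation of lysine 18 of histone H3), H3K27ac, H3K4me3 and H3K27me3, an assay in which an antibody guides a transposase to cut and tag DNA beside the modified histone. A promoter was 2 kb on each side of every annotated transcription start, and a gene window was the gene body with 10 kb on each side. For each list it was recorded whether a peak was called there, how wide it was and how its total signal ranked among all peaks of that list.

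The 41 samples formed 24 groups, each a cell type with a histone mark, and every group had 1 pooled peak list, made from 2 samples in 17 groups and from 1 sample in 7. The mouse cell types were E14 embryonic stem cells (mESC) in serum with LIF (mESC-ser) or in 2i medium with LIF (mESC-2i), and 6 types of C57BL/6 origin. Primary myoblasts (MB) had 1 sample per mark and were the source of the myotubes (MT), which were differentiated for 3 days. Gastrocnemius muscle (GAS) was whole frozen tissue of female mice of 8 to 12 weeks, so its nuclei came from every cell type of the muscle. Bone marrow-derived macrophages (BMDM) were grown with M-CSF for 7 days and had 1 sample per mark. Post-ischemia macrophages (PIM) were sorted as CD45+CD11b+F4/80+CD64+ cells from calf muscle 2 days after hind-limb ischemia. The study's methods describe female mice of 8 to 12 weeks for muscle and macrophage samples alike. Adipocyte nuclei (ADIPO) were pulled down with streptavidin from white fat of 10-week-old female AdipoCre-NuTRAP mice, whose Cre is driven by the adiponectin promoter. Stem cells entered the assay as whole cells and the other types as nuclei. H3K18la was profiled in all 8 cell types, H3K27me3 in 7, H3K27ac in 5 and H3K4me3 in 4.

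Fatty acids enter mitochondria as carnitine esters. CPT1 on the outer membrane makes the ester and CPT2 on the inner membrane turns it back into acyl-CoA. Acyl-CoA dehydrogenases of different chain-length preference then start each round of beta-oxidation, and the trifunctional protein, built of HADHA and HADHB, completes the rounds for long chains. PDK4 phosphorylates and inhibits pyruvate dehydrogenase, which spares glucose when fat is burned, and UCP3 is a mitochondrial carrier found mainly in skeletal muscle and brown fat whose gene is induced by fasting. Oxidative muscle and heart rely strongly on this pathway, and its genes are known targets of PPAR nuclear receptors.

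Replicates had been combined before peaks were called, so no value has a replicate error and no difference was tested. Counts of member genes are therefore set beside the share of all 21755 genes called by the same rule. The lists held 11002 to 36813 peaks and covered 22.6 to 197 Mb, with BMDM H3K18la covering the least and GAS H3K27ac the most. Sequencing depth was not analysed here, and the precision of single calls is unknown. Since the samples are bulk chromatin, fewer cells carrying a mark and less of the mark per cell cannot be told apart. Promoter H3K18la was called at the markers of each labelled cell type other than MB. All 5 stem cell markers were called in both stem cell lists and in no other list. All 6 muscle markers were called in MT and GAS, all 5 macrophage markers in BMDM and PIM, and all 5 adipocyte markers in ADIPO. In MB, 2 of 6 muscle markers were called, which limits that label check. GAS also had calls at 3 of 3 endothelial, 2 of 5 macrophage and 2 of 5 adipocyte markers, and ADIPO at 2 of 6 muscle and 2 of 5 macrophage markers. Calls at markers of other types were also found in MT, with 3 of 5 macrophage markers, in PIM, with 3 of 5 adipocyte and 2 of 3 endothelial markers, and in BMDM, with 2 of 3 endothelial markers. Their part in the results was not tested.

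The 3 active marks lay at most of these promoters. Of the 3 cell types profiled for all of them (mESC-ser, GAS and PIM), GAS carried H3K18la, H3K27ac and H3K4me3 together at all 10. H3K18la was called at 46 of 80 combinations of member and cell type (57.5%), beside 31.8% of all combinations of genes and cell types. For H3K27ac the count was 37 of 50 (74%) beside 43.2%, and for H3K4me3 it was 33 of 40 (82.5%) beside 58.5%. H3K27me3, the mark of repressed chromatin, went the other way, with 4 of 70 (5.71%) beside 21.7%. Over the wider gene windows, H3K18la reached 59 of 80 beside 46.7%, H3K27ac 45 of 50 beside 54.3%, H3K4me3 37 of 40 beside 66.6% and H3K27me3 15 of 70 beside 34.4%. Part of these window calls came from peaks at promoters of neighbouring genes. Without such peaks they were 46 for H3K18la, 34 for H3K27ac, 28 for H3K4me3 and 12 for H3K27me3. A share of all genes is not given for that setting. Members had somewhat more annotated promoter sequence than other genes, with a median of 8482 bp against 6938 bp. With a single start per gene, the shares were 56.2% of member combinations against 27.9% for H3K18la and 74% against 39.9% for H3K27ac. Hadha and Hadhb have 85 bases between their first starts and share the peaks called there, so the first starts of the 10 genes stand for 9 separate regions.

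**Figure D1:**
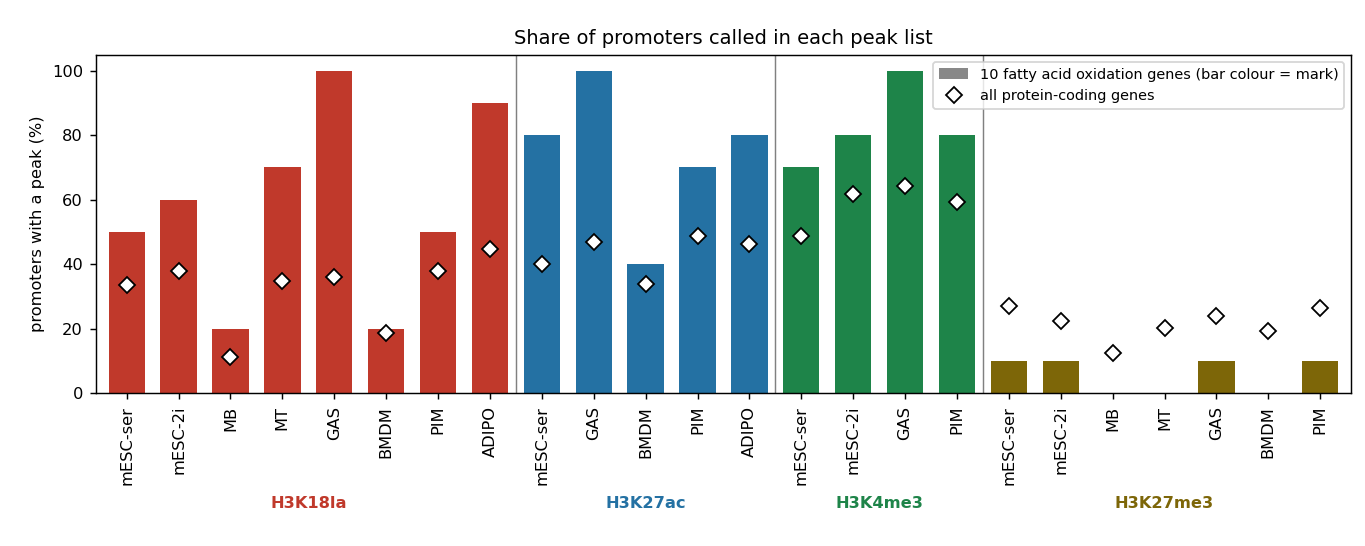
Percentage of promoters with a called peak in each of the 24 peak lists, grouped by histone mark on the horizontal axis. Bars give the 10 fatty acid oxidation genes and diamonds all 21755 protein-coding genes; the 3 active marks in GAS reach 100% of members, and every H3K27me3 bar is below its diamond.

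By cell type, H3K18la was called at 10 of 10 member promoters in GAS, where 36.1% of all genes were called. ADIPO followed with 9 members against 44.7% of all genes and MT with 7 against 34.8%. The stem cells were lower, with 6 members in mESC-2i against 37.8% of all genes and 5 in mESC-ser against 33.4%. In PIM 5 members were called against 37.8% of all genes, and 2 members each in MB and BMDM, the lists with the fewest called bases, against 11.1% and 18.5%. The BMDM share was therefore near that of genes at large. These counts fell when lists were shortened. With the 5000 peaks of largest signal per list, 4 members were called in GAS (8.3% of all genes), 4 in mESC-ser (12.3%) and 3 in ADIPO (9.16%), and 17.5% of all member combinations beside 8.38% of all genes. With every list reduced to equal called bases, 2 were called in GAS (3.37% of all genes), 2 in mESC-ser (5.54%) and 2 in BMDM (18.5%), and 10% of combinations beside 6.22%.

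The 5 H3K27ac lists ran from 10 members in GAS, where 47% of all genes were called, to 4 in BMDM, where 34% were. Between them lay mESC-ser with 8 against 40.2%, ADIPO with 8 against 46.1% and PIM with 7 against 48.8%. With every list reduced to equal called bases the order turned, with 1 member called in GAS (3.48% of all genes), 3 in mESC-ser (28.3%), 3 in BMDM (21.7%), 7 in PIM (44.5%) and 7 in ADIPO (14.1%). With the 5000 peaks of largest signal GAS kept the highest count, with 8 members (13.9% of all genes) beside 7 in ADIPO (14.4%), 6 in PIM (19.1%), 3 in mESC-ser (17.4%) and 3 in BMDM (16%). H3K4me3 was called at 10 members in GAS against 64.2% of all genes, at 8 in PIM against 59.4%, at 8 in mESC-2i against 61.8% and at 7 in mESC-ser against 48.8%. H3K27me3 was called at 1 member in mESC-ser (27% of all genes), 1 in mESC-2i (22.5%), 1 in GAS (23.9%) and 1 in PIM (26.4%). It was called at no member promoter in MB (12.5% of all genes), MT (20.1%) or BMDM (19.2%).

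The members' promoter peaks were also high in the order of their GAS lists for 2 of the 3 active marks. A percentile of 100 is the peak with the largest total signal of its list, and each member was given its strongest promoter peak. A percentile depends on how many weak peaks its list holds, so percentiles from different lists are given side by side and do not order the cell types. In GAS the median member percentile was 90.4 for H3K27ac, while the median over all called promoters was 71.3, and for H3K4me3 it was 95.4 against 77.3. For H3K18la it was 63.6 against 61.4, so the H3K18la peaks of this gene group ranked close to those of other called promoters in the same tissue. In ADIPO the H3K18la median was 80.4 against 58.4 and the H3K27ac median 87.2 against 64.3. Stem cells had lists in which members ranked below other called promoters, with medians of 36.5 against 61.4 for H3K18la in mESC-2i and 33.9 against 63.0 for H3K27ac in mESC-ser. In mESC-ser H3K18la the median was 82.9 against 60.9, over 5 called members. That median was the Cpt1b peak, whose maximum lay near the neighbour Chkb, at -3593 bp from the Cpt1b start. The strongest Acadvl and Acadm peaks also had their maxima away from the first starts. The peaks over those starts were at percentiles 9.93 for Acadvl and 59.9 for Acadm. Over all cell types, member promoter peaks had a median width of 2737 bp for H3K18la (range 356 to 17106), 2572 bp for H3K27ac (598 to 18907) and 3092 bp for H3K4me3 (1007 to 15839).

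**Figure D2:**
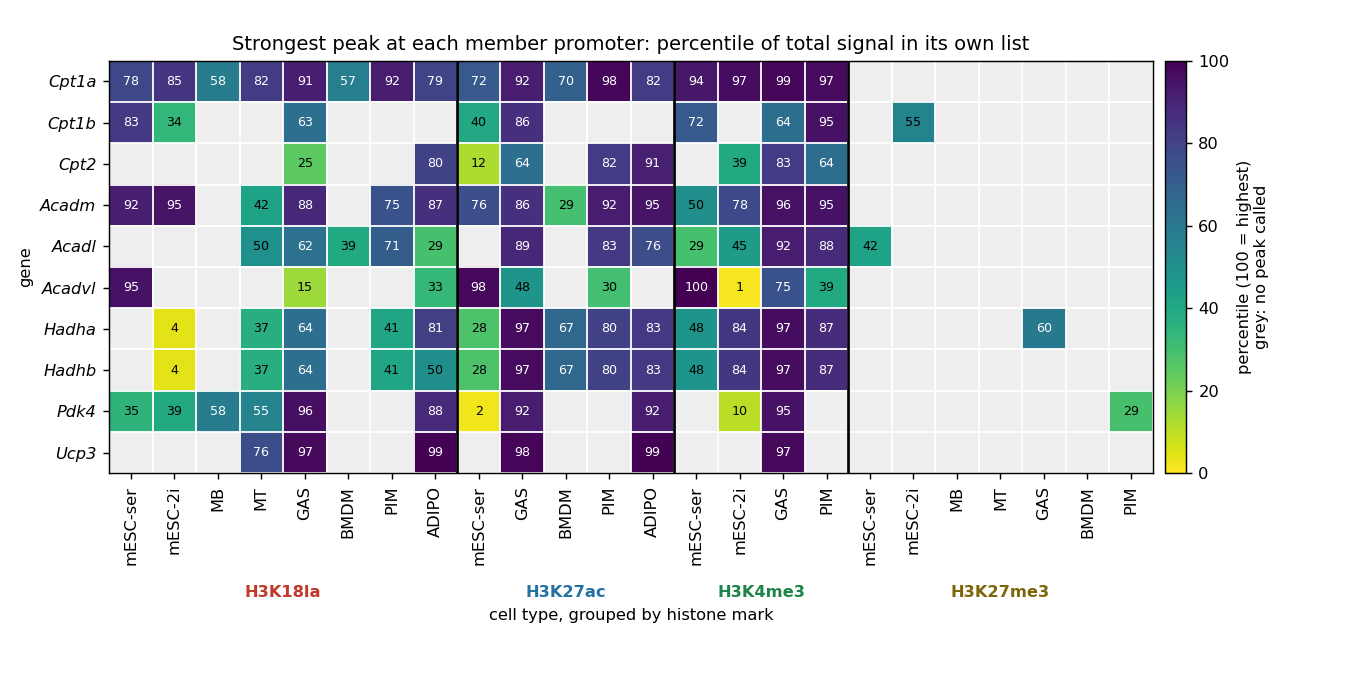
Heat map of the strongest promoter peak of each member (rows) in each peak list (columns, grouped by mark), coloured and numbered by its percentile of total signal within that list, where 100 is the highest. Grey cells have no promoter peak; the GAS columns of the active marks are filled for all 10 genes, Cpt1a is filled in all 17 active lists, and the H3K27me3 block has 4 filled cells.

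The entry enzymes differed most from each other. Cpt1a, the form of carnitine palmitoyltransferase 1 found in liver and most other tissues (chr19:3322334-3385733, plus strand), was called in all 17 lists of active marks. Cpt1b, the muscle form (chr15:89416405-89425863, minus strand), was called in 8 of 17, and Cpt2 (chr4:107903981-107923610, minus strand) in 9 of 17. Positions are given in bp from the first annotated start of each gene, negative upstream.

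Cpt1a H3K18la peaks had percentiles of 92.1 in PIM, 91.4 in GAS, 85.0 in mESC-2i, 82.1 in MT, 79.4 in ADIPO, 78.5 in mESC-ser, 57.7 in MB and 57.2 in BMDM. The BMDM peak did not lie at the first start. It was 1295 bp wide with its maximum at 54946, beside internal starts annotated at 52706 and 54010, and no H3K18la peak was called at the first start in BMDM. ADIPO had its strongest Cpt1a peak there too, 4254 bp wide with its maximum at 54842, while the peaks near the first start reached percentiles of 32.4 and 36.2. PIM had peaks at both places, at percentiles of 92.1 and 84.8. BMDM did carry H3K27ac at the first start, in a peak of 4430 bp at percentile 69.5. H3K4me3 at Cpt1a was strong in each of its 4 lists, between percentile 93.7 in mESC-ser and 98.6 in GAS. The RefSeq promoter of Cpt1a belongs to the annotated start at 951. Its bases before that start lay inside H3K18la peaks of 7 cell types and are shown because they hold the letters AGGTCA, the half-site that PPAR and other nuclear receptors bind, here on the other strand and in capitals (GRCm38.p6, chr19:3323051-3323284, plus strand).
Cpt1a: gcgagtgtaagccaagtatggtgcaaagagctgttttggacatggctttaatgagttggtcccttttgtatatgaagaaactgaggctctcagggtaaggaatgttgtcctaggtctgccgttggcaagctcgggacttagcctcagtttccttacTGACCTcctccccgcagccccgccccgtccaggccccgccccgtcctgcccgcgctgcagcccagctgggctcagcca

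Cpt1b promoters were less simple to read, because Chkb (choline kinase beta) starts at -4045 and its promoter peaks reach toward Cpt1b. GAS was the cell type with H3K18la, H3K27ac and H3K4me3 maxima at the Cpt1b start itself, at -62, 2 and 36. Its H3K18la peak was 1134 bp wide at percentile 63.4, and a separate peak of 3008 bp at percentile 74.9 covered the Chkb start. In the H3K27ac list of GAS both starts lay in a single peak of 7226 bp at percentile 86.1. mESC-ser also had an H3K27ac maximum at the Cpt1b start (34, percentile 39.7), but its H3K18la peak of 6712 bp had the maximum at -3593. In mESC-2i the H3K18la peak ended at -1672, in mESC-ser the H3K4me3 peak ended at -1855 and in PIM the H3K4me3 peak ended at -1046, so these 3 promoter calls came from peaks with maxima near Chkb. MT, BMDM, PIM and ADIPO had H3K18la at Chkb and none within 2 kb of a Cpt1b start. Cpt1b had no entry in the RefSeq promoter table.

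Cpt2 had H3K18la in GAS and ADIPO only of the 8 cell types. The ADIPO peak was 3924 bp wide at percentile 80.4, and the GAS peak 1276 bp at percentile 25.0. Both had their maxima inside the gene, at 1531 in ADIPO and 1609 in GAS. H3K27ac was called in mESC-ser (percentile 12.3), GAS (63.6), PIM (82.4) and ADIPO (91.3), and H3K4me3 in mESC-2i (39.4), GAS (82.5) and PIM (63.8). H3K27ac and H3K4me3 were thus present in PIM without an H3K18la call.

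Of the acyl-CoA dehydrogenases, Acadm for medium chains (chr3:153922357-153944632, minus strand) was called in 15 of 17 active lists, Acadl for long chains (chr1:66830839-66863277, minus strand) in 12 and Acadvl for very long chains (chr11:70010183-70015411, minus strand) in 10. Acadm had no H3K18la promoter peak in the MB and BMDM lists. In stem cells its peak was at percentile 94.8 in mESC-2i and 91.8 in mESC-ser. In GAS it was at 88.3, in ADIPO at 86.7, in PIM at 74.9 and in MT at 41.9. The stem cell peaks were not centred on the first start. In mESC-ser the strongest peak was 5817 bp wide from 2064 to 7880, and a weaker peak at percentile 59.9 covered the start. In mESC-2i a peak of 11869 bp spanned both, and both stem cell lists had the maximum at 3903. In GAS, MT, PIM and ADIPO a peak with its maximum between -155 and 87 covered the first start. In ADIPO this start peak was at percentile 75.1. The ADIPO value of 86.7 belonged to an upstream peak of 3195 bp with its maximum at -3800, which did not cover the start. H3K27ac was called at that upstream place in ADIPO and GAS. The start of the neighbour Rabggtb, at 31623, also fell inside the Acadm window. It was the place of the only H3K18la peak there in BMDM, 860 bp wide, and it was called in all 5 H3K27ac and all 4 H3K4me3 lists.

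Acadl was the member with H3K18la in neither stem cell list and in 5 of the other 6 types. Its percentiles were 70.6 in PIM, 62.3 in GAS, 49.8 in MT, 39.4 in BMDM and 29.3 in ADIPO. The GAS peak had its maximum upstream at -2647, and weaker GAS peaks lay inside the gene at 355 and 2012. In MB the Acadl window held a single H3K18la peak, far inside the gene at 17199. In mESC-ser its promoter held H3K4me3 (percentile 29.3) and an H3K27me3 peak of 1102 bp (percentile 42.1) that overlapped it. GAS H3K27ac covered 8842 bp at percentile 88.8, and GAS H3K4me3 3887 bp at percentile 92.5.

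Acadvl lies between the starts of Dlg4 (a synaptic scaffold), at -1531, and Dvl2 (a Wnt signalling protein), at 14816. In mESC-ser its percentiles were 95.3 for H3K18la, 98.0 for H3K27ac and 99.7 for H3K4me3, but these peaks had their maxima at -5495, -5501 and 18013. Over the Acadvl start itself mESC-ser had an H3K18la peak at percentile 9.93 and an H3K27ac peak at percentile 0.907. In GAS, peaks with maxima near the Acadvl start were called for H3K18la (percentile 14.6, maximum at -31) and H3K4me3 (74.9, maximum at 1). Others were called in ADIPO for H3K18la (33.4, maximum at 147), in PIM for H3K27ac (30.0, maximum at -7) and H3K4me3 (39.1, maximum at 28), and in mESC-2i for H3K4me3 (1.42, maximum at 106). Peaks over the Acadvl start were below percentile 50 in every list that had them, except GAS H3K4me3.

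The RefSeq promoters of Acadm and Acadvl, both under GAS and ADIPO H3K18la peaks, hold 1 AGGTCA half-site each, in capitals, on the other strand in Acadm (GRCm38.p6, chr3:153944644-153944893, minus strand) and on the gene strand in Acadvl (chr11:70015429-70015678, minus strand).
Acadm: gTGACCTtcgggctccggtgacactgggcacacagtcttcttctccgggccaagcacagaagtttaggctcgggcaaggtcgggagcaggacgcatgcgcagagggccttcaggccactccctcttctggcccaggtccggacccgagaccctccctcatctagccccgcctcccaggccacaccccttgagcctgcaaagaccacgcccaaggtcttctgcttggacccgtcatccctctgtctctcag
Acadvl: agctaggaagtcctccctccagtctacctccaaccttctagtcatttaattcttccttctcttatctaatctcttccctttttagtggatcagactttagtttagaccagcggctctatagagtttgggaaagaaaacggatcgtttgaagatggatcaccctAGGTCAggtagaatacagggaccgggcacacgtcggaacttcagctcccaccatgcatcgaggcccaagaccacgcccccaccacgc

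The trifunctional protein genes Hadha (chr5:30118304-30155162, minus strand; alpha subunit, hydratase and dehydrogenase) and Hadhb (chr5:30155248-30184593, plus strand; beta subunit, thiolase) are transcribed away from each other. Their 85-base interval is shown with its 9 CpG dinucleotides in capitals, because the peaks over both first starts cover it (GRCm38.p6, chr5:30155163-30155247, plus strand).
Hadha-Hadhb: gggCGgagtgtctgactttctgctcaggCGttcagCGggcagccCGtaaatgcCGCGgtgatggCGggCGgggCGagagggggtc

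H3K18la was called over the interval in 5 cell types. The shared peak was 2254 bp wide in mESC-2i, 1835 bp in MT, 1916 bp in GAS, 2173 bp in PIM and 2265 bp in ADIPO, so its width hardly varied. Its percentile was 4.28 in mESC-2i, 36.7 in MT, 40.9 in PIM, 50.1 in ADIPO and 63.6 in GAS. mESC-ser, MB and BMDM had no H3K18la peak there. H3K27ac was called in all 5 of its lists, including mESC-ser (percentile 28.1) and BMDM (66.6), and H3K4me3 in all 4 of its lists. GAS had further H3K18la peaks within 10 kb of the interval, which the other 7 types lacked. In GAS, an H3K18la peak of 5496 bp at percentile 77.5 lay from 3844 to 9339 of Hadhb, another of 3261 bp lay on the Hadha side, and the H3K27ac peak was 18907 bp wide at percentile 96.9. H3K4me3 in GAS was at percentile 96.9 as well. ADIPO had a separate H3K18la peak inside Hadha, 2295 bp wide at percentile 81.1, beside an annotated internal start at 20120.

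**Figure D3:**
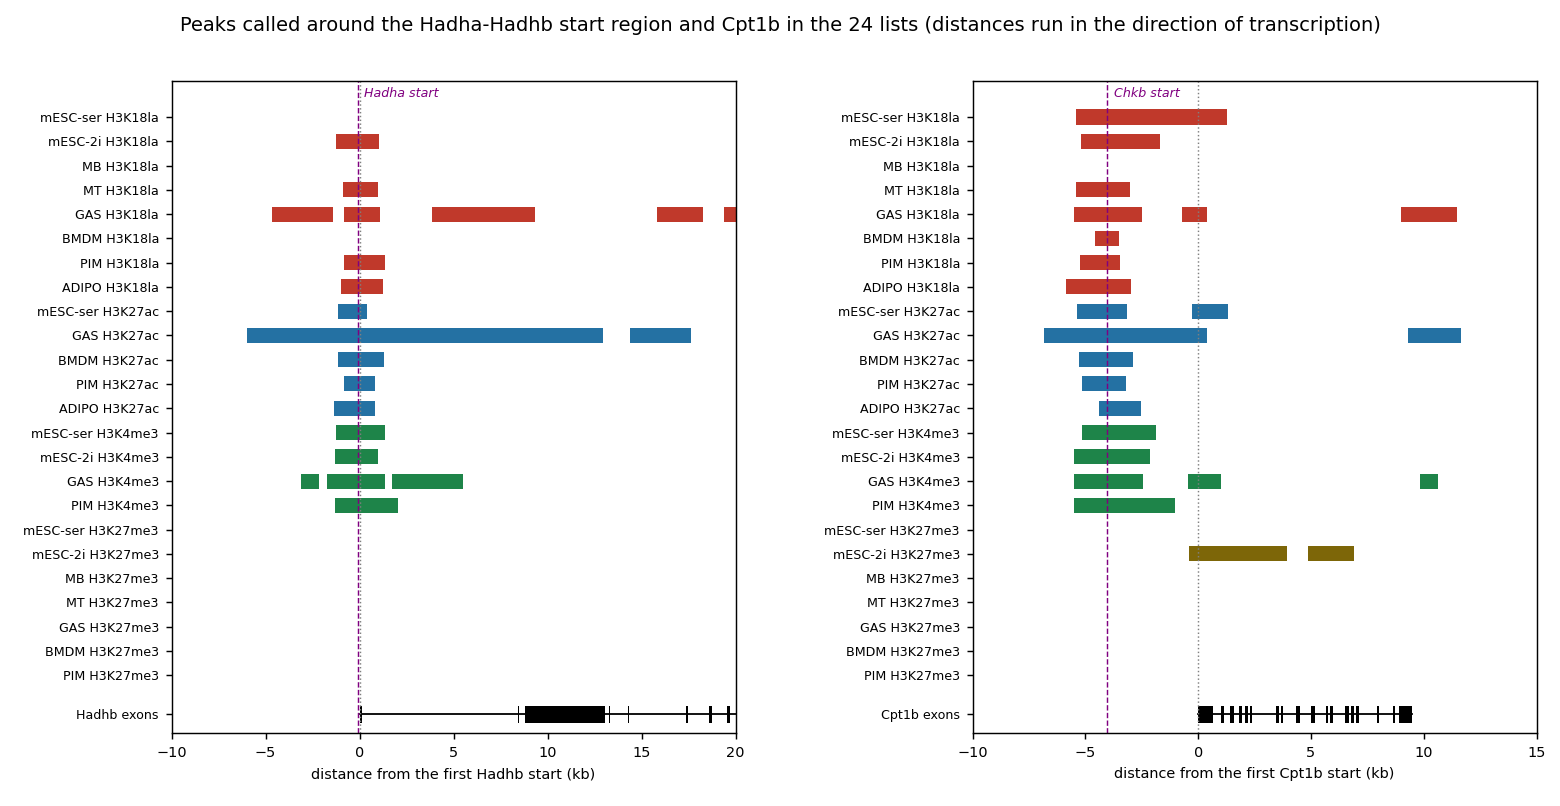
Peaks (coloured blocks, 1 row per peak list, colours by mark) against distance in kb from the first Hadhb start (left) and the first Cpt1b start (right), with annotated exons in black at the bottom. The dashed lines mark the Hadha and Chkb starts; a peak covers the Hadha-Hadhb interval in 14 of the 17 active lists, and GAS has the widest H3K27ac peak there (18907 bp), while most Cpt1b window peaks lie over the Chkb start at -4045.

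Pdk4 (chr6:5483351-5496309, minus strand) had H3K18la in 6 cell types and in neither macrophage list. Its peak was at percentile 95.9 in GAS (7154 bp), 88.1 in ADIPO (2728 bp), 57.6 in MB (2581 bp), 55.4 in MT (1680 bp), 39.1 in mESC-2i (2746 bp) and 34.8 in mESC-ser (2236 bp). Pdk4 and Cpt1a were the members called in MB. In GAS a further H3K18la peak of 7218 bp at percentile 94.7 ran upstream from -7887. No other H3K18la list had a peak in the part of it inside the window, and GAS H3K27ac reached it with a peak of 4317 bp. H3K27ac was at percentile 92.2 in both GAS (11863 bp) and ADIPO (2572 bp) and at 2.25 in mESC-ser. H3K4me3 was at percentile 95.0 in GAS and 10.2 in mESC-2i. In PIM the Pdk4 promoter held no active mark and an H3K27me3 peak of 2080 bp, from -1551 to 528, at percentile 28.9. Both stem cell types had a second H3K18la peak beyond the gene's end, with maxima at 13750 and 13756. The 219 bases of the Pdk4 RefSeq promoter that lie before the first annotated start are shown with their 6 CpG dinucleotides in capitals, for contrast with the Hadha-Hadhb interval, which holds 9 in a shorter stretch (GRCm38.p6, chr6:5496310-5496528, minus strand).
Pdk4: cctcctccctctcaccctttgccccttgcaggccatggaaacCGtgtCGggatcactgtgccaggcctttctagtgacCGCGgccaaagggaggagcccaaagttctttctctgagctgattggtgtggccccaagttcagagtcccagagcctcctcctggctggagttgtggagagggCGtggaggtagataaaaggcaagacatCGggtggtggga

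Ucp3 (chr7:100472990-100486432, plus strand) had the most restricted promoter calls, in 6 of 17 active lists. By total signal, its peak ranked above those of the other 9 members in the H3K18la and H3K27ac lists of GAS and ADIPO. By maximum signal, Pdk4 was above it in GAS H3K18la (percentile 98.5 against 97.3). Acadm and Cpt2 were above it in ADIPO H3K27ac (98.8 and 94.6 against 94.5). By that measure Ucp3 stayed highest in GAS H3K27ac and ADIPO H3K18la. H3K18la was at percentile 99.4 in ADIPO, 97.3 in GAS and 75.9 in MT, and was not called in MB, mESC-ser, mESC-2i, BMDM or PIM. The ADIPO peak ranked 175 of 28752 and the GAS peak 999 of 36813. The ADIPO peak was 17106 bp wide, the widest H3K18la promoter peak of any member. It ran from -13652 to 3453, across a promoter annotated to the neighbour C2cd3, and had its maximum at 1919. The GAS and MT maxima were at 1910 and 1860, so the 3 cell types had their maxima at nearly the same place inside the gene. H3K27ac maxima were at 1983 in GAS and 1992 in ADIPO, in peaks of 18723 and 12213 bp at percentiles 98.4 and 99.3. The GAS H3K4me3 maximum was at 1984, in a peak of 5019 bp at percentile 97.5. GAS, MT, BMDM and PIM had a separate H3K18la peak upstream, with maxima between -7614 and -7066, over a promoter annotated to C2cd3.

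Over the wider window Ucp3 was called for H3K18la in 7 of 8 types, and Ucp2, a paralog expressed in many tissues, starts inside that window at 20347. In mESC-ser and mESC-2i the Ucp2 peaks were 14176 and 15441 bp wide, at percentiles 97.3 and 96.8, and the Ucp3 promoter had no peak. Both stem cell lists held H3K27me3 inside the Ucp3 gene, with maxima at 6851 and 7410. The RefSeq promoter of Ucp3 lies under the GAS, MT and ADIPO peaks and holds 2 AGGTCA half-sites, in capitals, that begin 149 and 44 bases before the start (GRCm38.p6, chr7:100472741-100472989, plus strand).
Ucp3: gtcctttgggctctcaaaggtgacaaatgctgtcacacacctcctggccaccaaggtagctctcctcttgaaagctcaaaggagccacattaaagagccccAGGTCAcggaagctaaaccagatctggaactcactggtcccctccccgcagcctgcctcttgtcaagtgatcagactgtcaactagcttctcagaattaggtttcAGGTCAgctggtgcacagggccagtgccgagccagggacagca

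**Figure D4:**
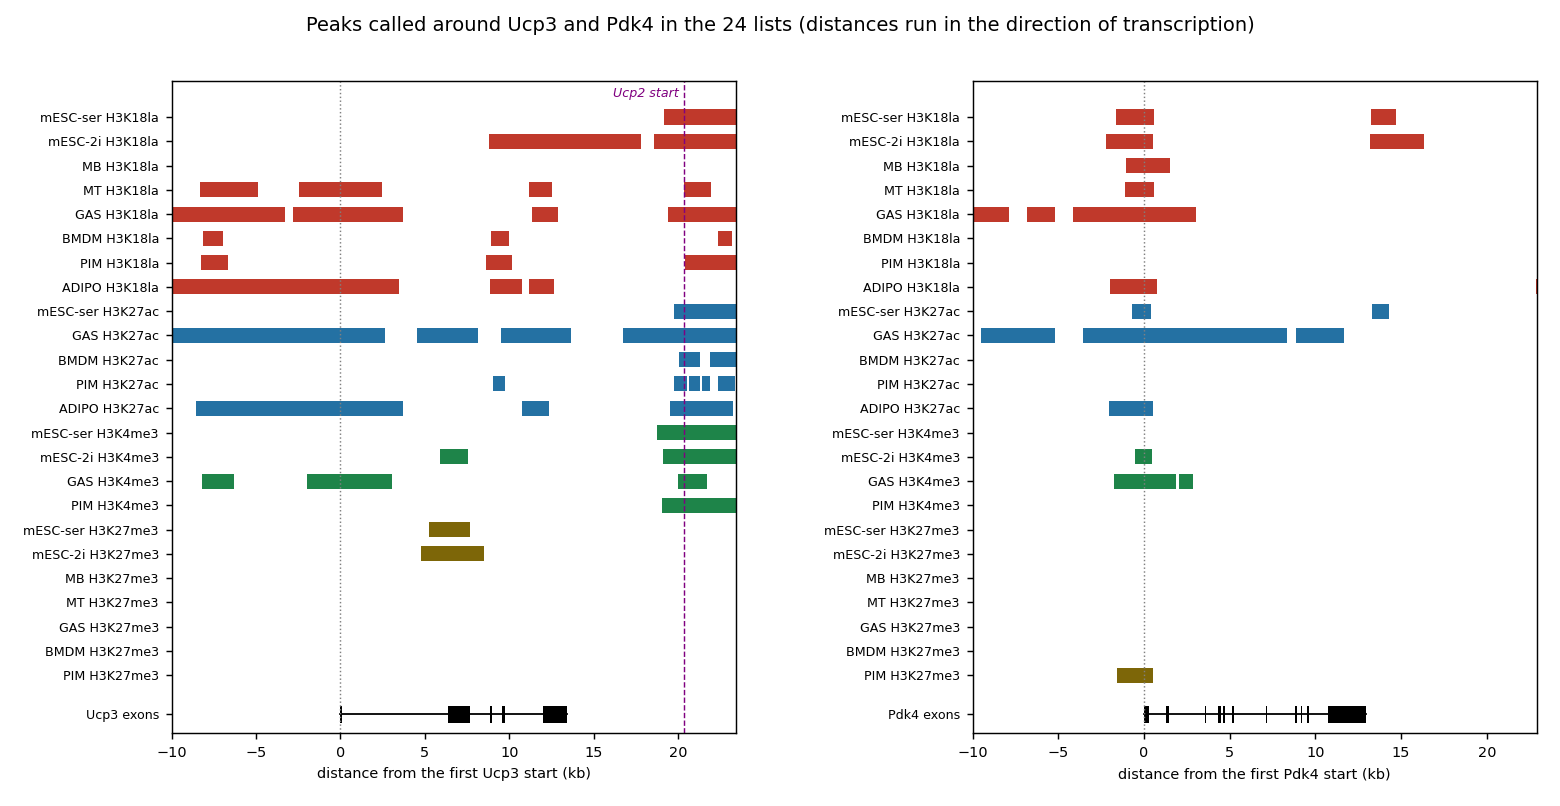
Peaks (coloured blocks, 1 row per peak list, colours by mark) against distance in kb from the first Ucp3 start (left) and the first Pdk4 start (right), with annotated exons in black at the bottom and the Ucp2 start as a dashed line. Peaks cover the Ucp3 start in 6 lists, from MT, GAS and ADIPO, and the Pdk4 start has active marks in all types but the macrophages, where PIM shows the H3K27me3 block.

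Coverage of each gene window by H3K18la peaks was compared between cell types. The measure was the share of the window in peaks over the share of the genome in peaks of the same list. It uses called bases and not signal. The median over the 10 members was 4.70 in GAS, 3.47 in ADIPO, 2.82 in mESC-ser, 2.19 in mESC-2i, 1.80 in PIM, 1.42 in MT, 0.396 in BMDM and 0 in MB. The median over all genes was 0.248 in GAS, 0.829 in ADIPO, 0.356 in mESC-2i, 0.466 in PIM, 0.328 in MT and 0 in mESC-ser, BMDM and MB. In MB the members' median equalled that of all genes and their mean, 1.09, was below the mean of all genes, 1.37. All 10 members were above 0 in GAS (51.9% of all genes) and in ADIPO (58.6%), and 3 were in MB (24.4%). GAS had the highest value of the 8 types for 4 members, Acadl (2.61), Hadha (4.02), Hadhb (6.44) and Pdk4 (7.06), and 7.32% of all genes had their highest value in GAS. This pattern was picked after the values had been seen. The Hadha and Hadhb windows overlap and share GAS peaks, so the 4 members are not 4 separate regions. The count of members highest in GAS was 2 without the 10 kb flanks and 1 with every list reduced to the same number of called bases. It was 3 with flanks of 50 kb. It was 6 with the covered share of the window not divided by that of the genome. Ucp3 was highest in ADIPO at 17.4, ahead of GAS at 12.1 and BMDM at 10.7, and Cpt2 was highest in ADIPO at 6.43. BMDM, mESC-2i (8.52) and PIM (7.06) had no Ucp3 promoter peak. Their Ucp3 windows held peaks over the Ucp2 promoter and in the Ucp3 gene. Acadvl (24.3) and Cpt1b (7.28) were highest in mESC-ser and Acadm (9.06) in mESC-2i, and the Acadvl and Cpt1b windows held the strong Dvl2, Dlg4 and Chkb peaks described above. Cpt1a was the member above 0 in all 8 types, from 1.81 in BMDM to 5.10 in PIM.

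**Figure D5:**
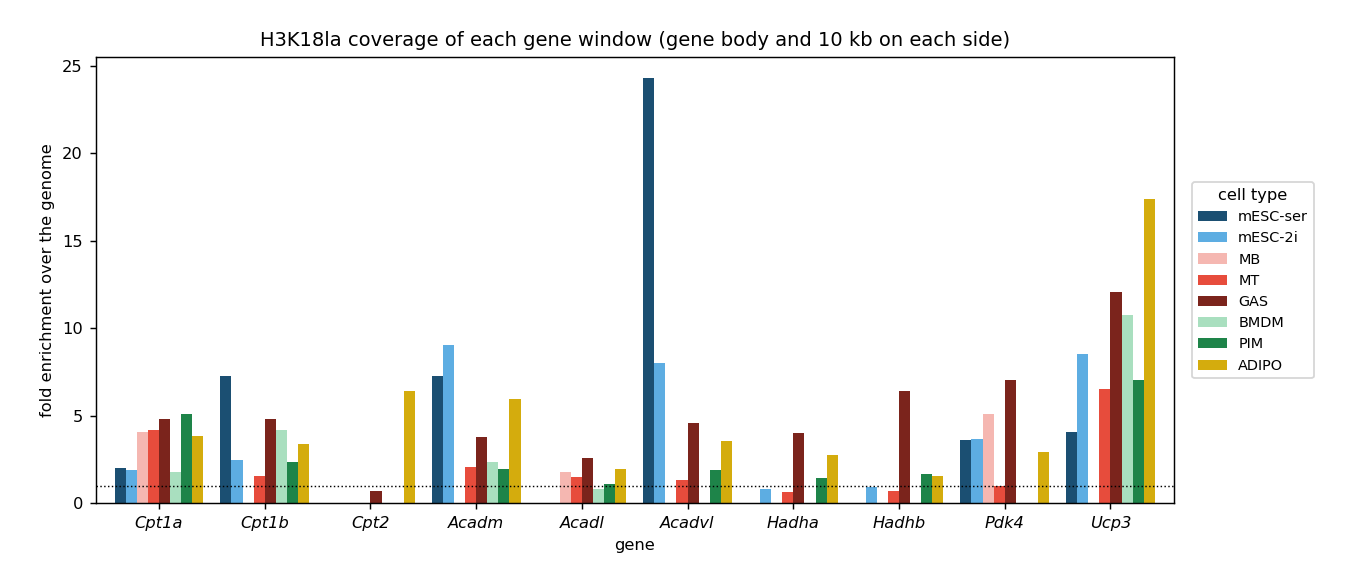
Fold enrichment of H3K18la coverage over each member's gene window (share of the window in peaks over share of the genome in peaks of the same list; vertical axis, linear) in the 8 cell types (bar colours). The dotted line marks 1; GAS bars are the highest for Acadl, Hadha, Hadhb and Pdk4, ADIPO for Ucp3 (17.4) and Cpt2 (6.43), and mESC-ser for Acadvl (24.3).

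No member had a higher value in all 3 muscle types than in every other type, a pattern held by 2.03% of all genes. Pdk4 was at 7.06 in GAS, 5.09 in MB and 0.982 in MT, while Cpt1a was at 4.81, 4.05 and 4.19 and Acadl at 2.61, 1.80 and 1.52. Acadl alone was lower in both stem cell types, where it was 0, than in all 6 other types, a pattern held by 2.74% of genes. With equal called bases 0 members had it, and without BMDM 2 did.

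Related cell states differed by up to 5 members in H3K18la calls. MB and MT shared Cpt1a and Pdk4 (10.2% of all genes were called in both), and MT added Acadm, Acadl, Hadha, Hadhb and Ucp3 (24.6% in MT alone). The MB list covered 40.5 Mb and the MT list 137 Mb, and the part of this difference in the added calls was not tested. All 7 MT members were called in GAS (24.6% of all genes in both), which added Cpt1b, Cpt2 and Acadvl (11.5% in GAS and not MT). Between GAS and ADIPO, 9 members were shared (26.6% of all genes) and Cpt1b was called in GAS and not ADIPO (9.47%). The overlap of GAS and ADIPO peaks (bases in both over bases in either) was 0.291 in the members' windows and 0.200 over all gene windows for H3K18la, and 0.290 and 0.135 for H3K27ac. For H3K18la it was 0.364 and 0.267 between MT and GAS, 0.464 and 0.458 between mESC-ser and mESC-2i, 0.216 and 0.244 between BMDM and PIM, and 0.176 and 0.218 between MB and MT. The last 3 pairs were near or below the value of all gene windows. mESC-ser and mESC-2i shared Cpt1a, Cpt1b, Acadm and Pdk4 (28.6% of all genes), with Acadvl in serum alone (4.79%) and Hadha and Hadhb in 2i alone (9.19%). BMDM and PIM shared Cpt1a and Acadl (17.2%), and PIM added Acadm, Hadha and Hadhb (20.6%). The 2 members shared by BMDM and PIM were near the share of all genes. 

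Marks were often called at the same member promoter. In the 5 cell types with both marks, H3K18la and H3K27ac were both called at 29 of 50 member promoters, beside 29.4% of all genes. H3K27ac without H3K18la was found at 8 (16% beside 13.8% of all genes), Cpt2, Hadha and Hadhb in mESC-ser, Acadm, Hadha and Hadhb in BMDM, and Cpt2 and Acadvl in PIM. H3K18la without H3K27ac was found at 2 (4% beside 4.77%), Acadl in BMDM and Acadvl in ADIPO. H3K18la and H3K4me3 were both called at 24 of 40 (33.2% of all genes), with 9 that had H3K4me3 without H3K18la (22.5% beside 25.3%) and 2 that had the reverse (5% beside 3.08%). The shares with only the first or second mark of these pairs were thus near those of all genes. H3K27ac and H3K4me3 were both called at 23 of 30 (42.8%). All 3 active marks were at 10 members in GAS (29.4% of all genes), 5 in PIM (34%) and 4 in mESC-ser (23.9%). The PIM share was closer to the background than the GAS share.

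H3K27me3 met an active mark at 3 of 70 member promoters, beside 8.99% of all genes. The 3 were Acadl in mESC-ser, Cpt1b in mESC-2i and Hadha in GAS. The peaks themselves overlapped only at Acadl. At Cpt1b the H3K27me3 peak of 4370 bp ran from -415 to 3954, away from the H3K18la peak on the Chkb side. At Hadha the H3K27me3 peak of 3340 bp lay at the far end of the gene, within 2 kb of an internal start at 34857, and was not counted with a single start per gene. In BMDM and PIM wide H3K27me3 peaks of 15039 and 13222 bp over the neighbour Garem2 entered the Hadha window without reaching a Hadha promoter. Window peaks also overlapped promoters of Tesmin (beside Cpt1a), C730034F03Rik and Gm44502 (Cpt1b), Msh4 (Acadm), Kansl1l (Acadl), Phf23, Ctdnep1, Elp5 and Gabarap (Acadvl) and 3110082J24Rik (Hadha).

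Among 53 other genes of the pathway, H3K18la was called at 220 of 424 promoter combinations (51.9% beside 31.8% of all genes), H3K27ac at 192 of 265 (72.5% beside 43.2%), H3K4me3 at 184 of 212 (86.8% beside 58.5%) and H3K27me3 at 61 of 371 (16.4% beside 21.7%). For H3K27me3 the groups went both ways, with 22 of 63 for regulators (34.9%), 7 of 21 for malonyl-CoA control (33.3%) and 10 of 35 for paralogs (28.6%), but 8 of 119 for matrix beta-oxidation (6.72%) and 0 of 28 for the carnitine shuttle. By cell type, 43 of the 53 had H3K18la in ADIPO (44.7% of all genes) and 40 in GAS (36.1%). In the other types 31 did in mESC-2i (37.8%), 30 in PIM (37.8%), 26 in mESC-ser (33.4%), 26 in MT (34.8%), 13 in BMDM (18.5%) and 11 in MB (11.1%). Of the 17 genes of matrix beta-oxidation, 13 had H3K18la in ADIPO and 11 in GAS, and of the 9 regulators all 9 did in both. Slc27a1, a fatty acid transporter, and Rxra, the partner of PPAR receptors, were called for H3K18la in all 8 types. Slc27a4, Hsd17b10 and Acat1 were called in none, and Acaa1b in 1. Of the paralogs, Ucp1, the uncoupling protein of brown fat, had no H3K18la call and H3K27me3 in all 7 lists, while Ucp2 had H3K18la in 6 types and no H3K27me3 call. H3K18la was called at Pdk2 in 5 types, at Pdk1 in 4 and at Pdk3 in 1, against 6 for Pdk4. Cpt1c, the brain form, was called in 2.

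The promoter sequences themselves also differed within the group. RefSeq promoters (250 bases before to 50 after the start) were matched for 9 of the 10 members. Acadl, Cpt1a, Cpt2, Hadha and Hadhb, 5 of 9, were CpG-rich (GC share of at least 50% and a CpG observed over expected ratio of at least 0.6), beside 33.5% of all promoters in the table. The Hadha and Hadhb promoters overlap each other, so they are not separate sequences in this count. Acadl had the most CpG dinucleotides, 34, and Ucp3 the fewest, 5, while the median over all promoters was 7. AGGTCA was searched on both strands and found in Acadm, Acadvl, Cpt1a and Ucp3, and 16.3% of all promoters held it. The direct repeat AGGTCANAGGTCA, searched on both strands with at most 2 mismatches, was found in Ucp3 alone, where it has 2 mismatches, begins 51 bases before the start and contains the second half-site printed above. It was found in 3.86% of all promoters. TATAAA was searched on the gene strand and found in no member promoter, beside 8.32% of all promoters.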

How the data were processed

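CUT&Tag libraries were trimmed (Trim Galore 0.6.6), aligned to mm10 (Bowtie2 2.4.4, SAMtools 1.13) and combined per group, and the authors called peaks with SEACR 1.3 (stringent, top 1% of regions), tools and versions being those of the submitters' processing notes. The deposited peak lists give the total and the highest signal of each peak (coverage in whole numbers, not scaled between lists), so signal was compared only as a rank within its list. Peaks overlapping a promoter or gene window by at least 1 bp were counted for every protein-coding gene with Python 3.11.15, numpy 2.4.6 and pandas 2.3.3, and plotted with matplotlib 3.10.9. Overlaps in simulated peak sets matched those of bedtools 2.31.1. Per the labels, cell type and mark set the groups. All 10 members are named, neighbours where a window peak overlapped their promoter, and other pathway genes if called for H3K18la in all cell types or in at most 1, or as paralogs. The members and lists were chosen with earlier results of these data known. RefSeq promoters came from GRCm38.p6, the mm10 assembly.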

Additional observations from a re-analysis of the deposited data

How the results depend on the processing

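No paired analysis was possible because replicates had been combined before peaks were called, and no replicate could be left out for the same reason. Of 88 alternative values for 17 results, 65 stayed within the tolerance set for them (1.5 times the reported value for a count, which for small counts allows a change such as 4 to 6) and 23 moved. With the 5000 peaks of largest total signal per list, promoter calls of the 10 genes were 14 for H3K18la, 20 for H3K4me3 and 0 for H3K27me3, window calls were 17 for H3K18la and 4 for H3K27me3, promoters with H3K18la and H3K27ac together were 11, and those with H3K27me3 and an active mark were 0. With equal called bases in every list, promoter calls were 8 for H3K18la, 21 for H3K27ac, 21 for H3K4me3 and 0 for H3K27me3, and window calls were 13 for H3K18la, 29 for H3K27ac and 1 for H3K27me3. There the share of members beside that of all genes was 10% and 6.22% for H3K18la, 42% and 22.4% for H3K27ac, 52.5% and 27.6% for H3K4me3 and 0% and 4.13% for H3K27me3. With 5000 peaks it was 17.5% and 8.38%, 54% and 16.1%, 50% and 24.9%, and 0% and 12.3% for the marks in that order. H3K27me3 window calls were 6 without flanks and 9 with flanks of 5 kb. The median H3K27me3 percentile was 30.5 by width. H3K27me3 with an active mark was 1 with promoters of 1 kb and 1 where the peaks had to overlap. Members lower in both stem cell types were 0 with equal bases and 2 without BMDM. Members highest in GAS, an alternative chosen after the data were seen, were 2 without flanks and 1 with equal bases. The cause of these moves was not tested, beyond the fewer peaks or bases that the settings keep. Depth was not analysed here, so a missing call does not show that a mark is absent.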
